A study of Mus musculus with 10 samples.

Results

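Genes of DNA replication and mitosis were examined in single mouse embryos with and without Klf5, a Kruppel-like transcription factor. The members were 40 genes fixed by symbol, from the factors that license replication origins to the kinases and checkpoint proteins of mitosis. Each was read at 1 array probe set, the one with the highest mean intensity over all arrays among those annotated to that gene alone. Of the 40 genes, 39 had such a probe set, among 16936 genes in the table, and 37 passed the level filter used for the tests. Ccnb1 had none, and Ccne2 and Cdkn1b lay below the filter.

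The samples were 5 wild-type embryos (labelled Wild Type, WT1 to WT5) and 5 knockout embryos (labelled Klf5 KO, KO1 to KO5), all at 3.0 days post coitum and collected from the oviduct. Each whole embryo was amplified on its own and hybridised to its own Affymetrix array. The labels give no strain, litter, sex or cell number, and do not say which part of Klf5 was removed. Intensities are given as deposited, on a linear scale, and differences as KO minus WT of log2(intensity + 16), which understates changes of dim probe sets. Because a whole embryo was measured, fewer cells of a kind and less RNA per cell cannot be told apart.

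A cell divides by licensing its replication origins, copying its DNA and then separating the copies. In licensing, the origin recognition complex (Orc1) with Cdc6 and Cdt1 loads the Mcm2-7 helicase, and geminin (Gmnn) holds Cdt1 in check so that each origin fires once. Cyclins bound to Cdk2 and Cdk1 drive S phase and mitosis, the Cdc25 phosphatases and the Wee1 kinase set Cdk activity, and the Polo and Aurora kinases, the spindle checkpoint and Cdc20 run the segregation of chromosomes. In the preimplantation embryo these divisions go on while the trophectoderm and inner cell mass form.

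The promoters of these genes carry known cell cycle elements, and those of 4 members are shown because their values recur below. Rrm2 had the smallest unadjusted p, and Mcm3, Cdk1 and Ccnb2 were among the genes that were low together in WT4 and WT5. The windows are RefSeq promoters on GRCm38.p6, from 250 bases before the annotated start to 50 after it, written 5′ to 3′ on the gene's strand. They lie at chr12:24708004-24708303 (plus strand) for Rrm2, chr1:20820263-20820562 (minus strand) for Mcm3, chr10:69352863-69353162 (minus strand) for Cdk1 and chr9:70421505-70421804 (minus strand) for Ccnb2. Capitals mark, on either strand, E2F-type motifs (TTTCGCGC, TTTGGCGC, TTTCCCGC or TTTGCCGC), the cell cycle homology region motif TTTGAA (CHR) and CCAAT. No marked motif overlapped another.
Rrm2: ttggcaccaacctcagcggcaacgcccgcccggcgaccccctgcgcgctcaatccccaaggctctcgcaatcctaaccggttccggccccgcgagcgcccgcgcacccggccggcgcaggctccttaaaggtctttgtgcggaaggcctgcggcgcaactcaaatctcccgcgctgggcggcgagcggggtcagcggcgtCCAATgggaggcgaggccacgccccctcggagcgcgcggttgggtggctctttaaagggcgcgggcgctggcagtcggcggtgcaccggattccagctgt
Mcm3: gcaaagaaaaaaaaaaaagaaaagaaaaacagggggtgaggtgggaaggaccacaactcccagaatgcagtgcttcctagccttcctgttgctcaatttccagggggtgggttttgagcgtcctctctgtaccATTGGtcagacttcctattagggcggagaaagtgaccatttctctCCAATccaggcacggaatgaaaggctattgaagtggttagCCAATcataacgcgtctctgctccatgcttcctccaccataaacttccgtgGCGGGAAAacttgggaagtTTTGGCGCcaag
Cdk1: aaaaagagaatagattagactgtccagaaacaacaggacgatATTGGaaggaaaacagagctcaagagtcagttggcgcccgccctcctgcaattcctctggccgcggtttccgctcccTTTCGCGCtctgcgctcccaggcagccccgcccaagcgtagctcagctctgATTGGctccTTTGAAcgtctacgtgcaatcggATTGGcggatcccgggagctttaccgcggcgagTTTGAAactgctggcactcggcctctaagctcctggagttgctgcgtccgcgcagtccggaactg
Ccnb2: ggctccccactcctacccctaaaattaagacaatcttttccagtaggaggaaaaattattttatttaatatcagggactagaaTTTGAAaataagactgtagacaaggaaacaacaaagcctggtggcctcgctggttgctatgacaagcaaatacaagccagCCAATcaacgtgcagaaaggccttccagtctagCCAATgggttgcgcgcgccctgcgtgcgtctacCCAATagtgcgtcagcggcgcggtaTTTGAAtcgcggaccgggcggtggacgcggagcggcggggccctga
The Mcm3 window held 2 E2F-type motifs and the Cdk1 window 1, with 2 CHR motifs each in Cdk1 and Ccnb2. The Rrm2 window held a single CCAAT. Of the 40 members, 31 matched an entry, and those without one were Mcm4, Gmnn, Ccnd1, Ccnd2, Ccne2, Ccna2, Cdc25c, Wee1 and Aurkb. In the first window of each gene, an E2F-type motif lay in 7 of 11 licensing and S-phase genes and 0 of 10 mitotic genes, against 2.32% of 27025 genes. CHR lay in 6 of 10 mitotic genes and 1 of 11 licensing and S-phase genes, against 18.1% of all genes. CCAAT lay in 23 of the 31 members (74.2%), against 37.9%. A match to these letters is a description of the window and not a binding site.

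The arrays also differed within each genotype. Levels of the bioB hybridisation control split the arrays into a high set (WT1, WT2, WT3, KO1 and KO2, at 8.36 to 8.95) and a low set (WT4, WT5, KO3, KO4 and KO5, at 6.16 to 6.69). The 3′ minus middle difference of the actin control was 4.61 in WT4 and 3.96 in WT5, against 2.68 to 3.51 in the other 8 arrays. That of the lys spike was 3.93 in WT4 and 4.46 in WT5, against 2.13 to 3.11. Each result was therefore recomputed with these 2 embryos left out, and the main counts also with the array set in the model. Klf5 read between 1096 and 4183 in the WT group and between 14.0 and 49.2 in the KO group (exact two-sided permutation p = 0.00794, n = 5 per genotype), so each embryo followed its label. Summed intensities of 9 cumulus and granulosa markers (354 to 475 in WT, 373 to 462 in KO), 4 oviduct markers (174 to 248 and 190 to 219) and 5 blood markers (179 to 335 and 172 to 242) overlapped between genotypes.

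The first question was whether replication and mitosis genes differed between KO and WT embryos. None of the 37 tested members passed the test (limma, Benjamini-Hochberg over 23174 probe sets, threshold 0.05), against 0.367% of all probe sets. At an unadjusted p under 0.05 there were 3 members (8.11%, against 10.1% of all probe sets), Rrm2, Cdc25b and Cdc20. All 3 were lower in KO embryos, as were 4.84% of all probe sets at that level. In no member did the KO embryos lie wholly on one side of the WT embryos, against 2.33% of all probe sets. Of the members 18 had a higher and 19 a lower mean in KO embryos (51.4% lower, against 50.6% of all probe sets), with a median difference of -0.02 against 0.00 over all probe sets. For 25 of the 37 (67.6%, against 82.2% of all probe sets) the 95% interval of the difference lay within 1 log2 unit of 0, so that a change of more than 2-fold lay outside it; for the other 12 it did not.

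**Figure D1:**
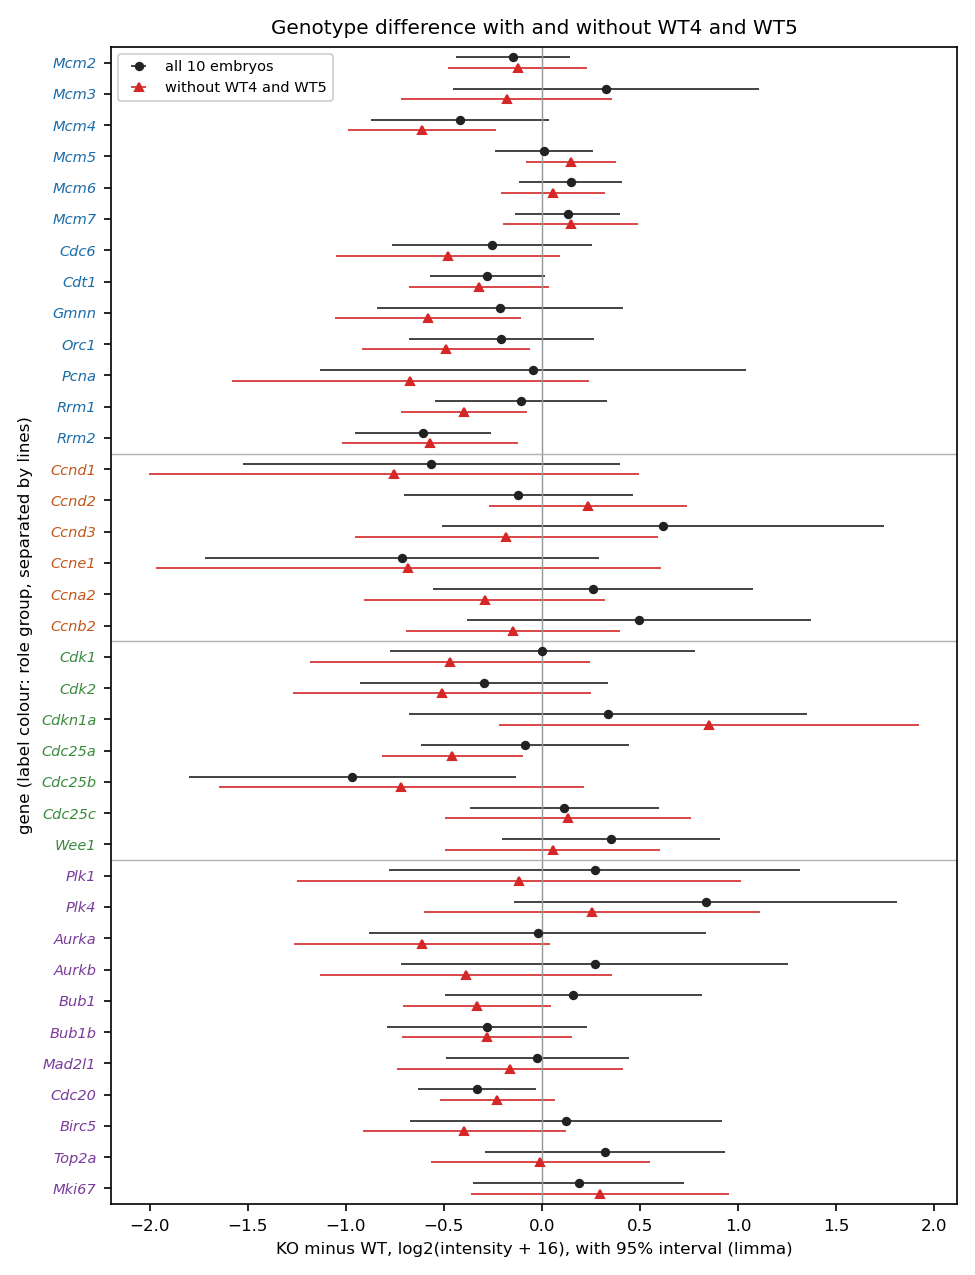
KO minus WT difference of each tested member on the log2(intensity + 16) scale (x axis), with its 95% limma interval, for all 10 embryos (black circles) and without WT4 and WT5 (red triangles). Genes are grouped by role, and 10 of the 18 positive differences turn negative without WT4 and WT5.

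Leaving out WT4 and WT5 moved most members down. Of the 37, 28 were then lower in KO embryos (75.7%, against 48.1% of all probe sets), and the median was -0.29 (0.01 over all probe sets). The direction changed for 11 members (29.7%, against 24% of all probe sets), 10 of them from higher to lower. Still none passed (smallest adjusted p = 0.183, against 0.315% called of all probe sets). At an unadjusted p under 0.05 there were 6, all lower in KO embryos (16.2%, against 12.3% of all probe sets in either direction and 7.72% lower), and 5 of the 6 were licensing or S-phase genes. With array set as a term in the model, 16 members were lower (51.2% of all probe sets were) and 21 higher, the median was 0.05, and none passed (0.298% of all probe sets did). Within the high-bioB set the median was -0.29 and within the low-bioB set 0.26, so the 2 sets went opposite ways (over all probe sets, 0.01 and -0.02).

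Licensing and S-phase genes gave the lowest unadjusted p of the members. Rrm2, the small subunit of the ribonucleotide reductase that makes deoxynucleotides, read 10265, 11331, 11078, 12054 and 11073 in WT1 to WT5 and 6804, 7911, 6241, 10713 and 5832 in KO1 to KO5. Of the KO embryos, 4 lay below every WT embryo and KO4 lay inside the WT range. On the log2 scale WT embryos averaged 13.45 ± 0.08 and KO embryos 12.84 ± 0.35 (SD, n = 5), which differ by -0.61 (95% interval -0.95 to -0.26, 1.52-fold, adjusted p = 0.172). It was -0.57 without WT4 and WT5, -0.57 on the high-bioB arrays and -0.66 on the low-bioB arrays, and passed only when KO4 was left out (-0.74, adjusted p = 0.0436). Both other tested Rrm2 probe sets were lower in KO embryos as well, by -1.22 (adjusted p = 0.238) and -0.45 (adjusted p = 0.867). Without WT4 and WT5 these differences were -1.58 and -1.21 (adjusted p = 0.151 and 0.0774). At the former of these, intensities were 2052, 1562, 1395, 754 and 1022 in WT1 to WT5 and 265, 935, 482, 862 and 438 in KO1 to KO5. There WT4 lay inside the KO range and the genotypes overlapped.

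The large subunit, Rrm1, read 718, 774, 738, 394 and 497 in WT1 to WT5 and 586, 627, 599, 422 and 593 in KO1 to KO5. All KO embryos lay below WT1 to WT3, and WT4 lay below all KO embryos. The difference was -0.11 over all embryos and -0.40 without WT4 and WT5 (adjusted p = 0.953 and 0.302). Gmnn, the inhibitor of Cdt1, showed the same arrangement, at 3536, 2174, 2025, 964 and 1798 in WT1 to WT5 and 1810, 1998, 1380, 1483 and 1730 in KO1 to KO5. Its difference was -0.21 over all embryos and -0.58 without WT4 and WT5 (adjusted p = 0.917 and 0.308). Placement of all KO embryos below WT1 to WT3 was met by 3 members (8.11%, against 4.82% of all probe sets), Rrm1, Gmnn and Cdc25a. For Cdc25a the placement was reversed at another probe set, given below.

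Mcm4, a helicase subunit, read 2596, 2653, 1900, 1249 and 2242 in WT1 to WT5 and 1547, 1942, 1329, 1543 and 1388 in KO1 to KO5. The lowest embryo of all was WT4, and 4 of the KO embryos lay below the remaining WT embryos. The difference was -0.42 over all embryos and -0.61 without WT4 and WT5 (adjusted p = 0.553 and 0.183), and its other probe set differed by -0.02 and -0.61 (adjusted p = 0.998 and 0.0962). Orc1, the largest subunit of the origin recognition complex, read 201, 261, 165, 115 and 125 in WT1 to WT5 and 112, 143, 129, 190 and 147 in KO1 to KO5. Here KO4 lay among WT1 to WT3 and the other KO embryos below them. The Orc1 difference was -0.21, or -0.49 without WT4 and WT5 (adjusted p = 0.876 and 0.345). Its other tested probe set went the opposite way, by 0.14 and 0.15.

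Cdt1, the licensing factor that geminin restrains, read 9611, 10513, 11872, 10799 and 9044 in WT1 to WT5 and 8130, 7188, 8358, 11263 and 8082 in KO1 to KO5. As with Rrm2, KO4 lay among the WT embryos and the other KO embryos below them. The difference was -0.28 (95% interval -0.57 to 0.01, adjusted p = 0.532) and -0.32 without WT4 and WT5. At its other tested probe set these were 0.04 and -0.54 (adjusted p = 0.993 and 0.201). Pcna, the sliding clamp of the replication fork, read 3118, 1669, 1209, 386 and 973 in WT1 to WT5 and 1532, 1879, 953, 653 and 1140 in KO1 to KO5. The WT embryos spanned the whole KO range, so the interval of its difference was wide (-0.05, 95% interval -1.13 to 1.04). Without WT4 and WT5 its difference was -0.67, the lowest of the licensing and S-phase members (95% interval -1.58 to 0.24). The remaining licensing members, Mcm2, Mcm3, Mcm5, Mcm6, Mcm7 and Cdc6, differed by -0.25 (Cdc6) to 0.33 (Mcm3), with adjusted limma p of 0.805 or more. For the group of 13, the median was -0.15 over all embryos and -0.40 without WT4 and WT5, with 9 and 10 members lower.

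Among cyclins none of the 6 tested members had an unadjusted p under 0.05 in either fit. Ccne1, the G1/S cyclin E1, read 2484, 3282, 4776, 4955 and 2593 in WT1 to WT5 and 1921, 2559, 629, 3794 and 3516 in KO1 to KO5. KO3 and KO1 lay below the WT range and the other 3 KO embryos within it (difference -0.71, 95% interval -1.72 to 0.29, adjusted p = 0.708). Ccnd1, the D-type cyclin that responds to mitogens, read 54.9, 55.0, 408, 79.0 and 75.1 in WT1 to WT5 and 61.9, 55.2, 69.7, 56.2 and 59.9 in KO1 to KO5. The high value was WT3 alone, and the other 4 WT embryos overlapped the KO embryos (difference -0.56, adjusted p = 0.787).

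Ccnd3, another D-type cyclin, read 1030, 789, 2315, 244 and 361 in WT1 to WT5 and 988, 1164, 1528, 889 and 975 in KO1 to KO5. WT4 and WT5 lay below every other embryo, so the difference turned from 0.62 to -0.18 without them (adjusted p = 0.811 and 0.882). Ccnb2, cyclin B2 of mitosis, read 457, 308, 543, 115 and 143 in WT1 to WT5 and 249, 414, 466, 402 and 417 in KO1 to KO5. It had the same arrangement, and its difference turned from 0.50 to -0.15 (adjusted p = 0.801 and 0.861). Ccna2, the cyclin of S phase and G2, turned likewise from 0.26 to -0.29. Ccnd2 went the other way, from -0.12 to 0.24, at intensities of 25.0 to 76.2 (WT) and 23.8 to 62.9 (KO). The other tested probe sets of Ccnd3 (-0.12 and -0.275) and Ccna2 (-0.14 and -0.18) were lower in both fits and did not turn. Ccne2, below the filter, read 7.88 to 31.6 (WT) and 6.92 to 20.3 (KO). The cyclin median was 0.07 over all embryos and -0.24 without WT4 and WT5.

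Among Cdks and their regulators, Cdc25b gave the largest difference of the members. Cdc25b, a phosphatase that activates Cdk1 at the entry into mitosis, read 93.6, 143, 179, 327 and 140 in WT1 to WT5 and 56.0, 32.2, 156, 66.8 and 114 in KO1 to KO5. WT4 was the highest, KO2 the lowest, and KO3 and KO5 lay within the WT range. WT embryos averaged 7.48 ± 0.60 and KO embryos 6.52 ± 0.72 on the log2 scale (SD, n = 5), which differ by -0.97 (95% interval -1.80 to -0.13, 1.95-fold, adjusted p = 0.403). It was -0.72 without WT4 and WT5 (adjusted p = 0.534) and -1.13 with array set in the model (adjusted p = 0.174).

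Cdc25a, the family member that acts at the G1/S transition, read 882, 1024, 1342, 609 and 502 in WT1 to WT5 and 776, 870, 783, 644 and 805 in KO1 to KO5. The KO embryos lay between the 2 sets of WT embryos, with a difference of -0.09 over all and -0.46 without WT4 and WT5 (adjusted p = 0.973 and 0.288). Its other probe sets went the opposite way, by 0.33 and 0.34. At the former, all KO embryos (404 to 560) lay just above WT1 to WT3 (269, 388 and 403). Wee1, the kinase that inhibits Cdk1, read 423, 463, 583, 317 and 253 in WT1 to WT5 and 541, 600, 511, 644 and 305 in KO1 to KO5, and the genotypes overlapped (0.35, or 0.05 without WT4 and WT5). Cdk2 read 70.9, 151, 265, 82.5 and 108 in WT1 to WT5 and 109, 101, 98.5, 104 and 72.9 in KO1 to KO5. The KO embryos fell inside the wider WT range (difference -0.30, adjusted p = 0.858).

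Cdkn1a, the Cdk inhibitor p21, read 400, 669, 755, 1296 and 1641 in WT1 to WT5 and 853, 1017, 570, 2805 and 1011 in KO1 to KO5. The highest value was KO4, and WT4 and WT5 lay above the other WT embryos, though its other probe set had a log2 difference of -0.39 there. The difference was 0.34 over all embryos and 0.85 without WT4 and WT5 (95% interval -0.22 to 1.92, adjusted p = 0.922 and 0.520). Cdk1, the mitotic kinase, had the same mean in both genotypes (11.06 and 11.06) and a difference of -0.47 without WT4 and WT5 (95% interval -1.18 to 0.25). Cdc25c differed by 0.11, and Cdkn1b, the inhibitor p27, read 13.7 to 19.6 (WT) and 7.01 to 52.4 (KO), below the filter.

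The mitotic genes were higher in KO embryos for 7 of 11 members over all embryos and for 2 of 11 without WT4 and WT5, at medians of 0.16 and -0.23. Cdc20, the activator of the anaphase promoting complex, read 9747, 11785, 12522, 15977 and 11408 in WT1 to WT5 and 9094, 9461, 9207, 9108 and 11504 in KO1 to KO5. All KO embryos but KO5 lay below the WT range. The difference was -0.33 (95% interval -0.63 to -0.03, adjusted p = 0.433), -0.23 without WT4 and WT5, and -0.39 and -0.27 at its other probe sets.

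Plk4, the kinase of centriole duplication, read 227, 683, 354, 94.3 and 176 in WT1 to WT5 and 399, 490, 636, 588 and 274 in KO1 to KO5. It had the largest positive difference of the members (0.83, 95% interval -0.14 to 1.81, adjusted p = 0.602), with WT4 and WT5 lowest, and 0.25 without them. Bub1b, the checkpoint protein BubR1, read 539, 707, 1013, 1140 and 468 in WT1 to WT5 and 558, 584, 689, 596 and 569 in KO1 to KO5. The KO embryos lay close together within the WT range (difference -0.28, adjusted p = 0.806). Aurkb, the kinase of the chromosomal passenger complex, read 344, 245, 509, 135 and 75.9 in WT1 to WT5 and 211, 374, 322, 152 and 329 in KO1 to KO5. WT4 and WT5 were the lowest of all, and the difference turned from 0.27 to -0.39 without them (adjusted p = 0.942 and 0.702). The differences of Plk1, Bub1, Birc5 and Top2a, which encode a mitotic kinase, a checkpoint kinase, survivin and topoisomerase II alpha, turned from 0.12 to 0.32 down to -0.40 to -0.01 in the same way. The other tested Top2a probe set, a dim one, did not turn (0.09 and 0.17). Aurka (-0.02 and -0.61) and Mad2l1 (-0.02 and -0.16) were lower in both fits, and Mki67, the proliferation antigen Ki-67, was higher in both (0.19 and 0.30).

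**Figure D2:**
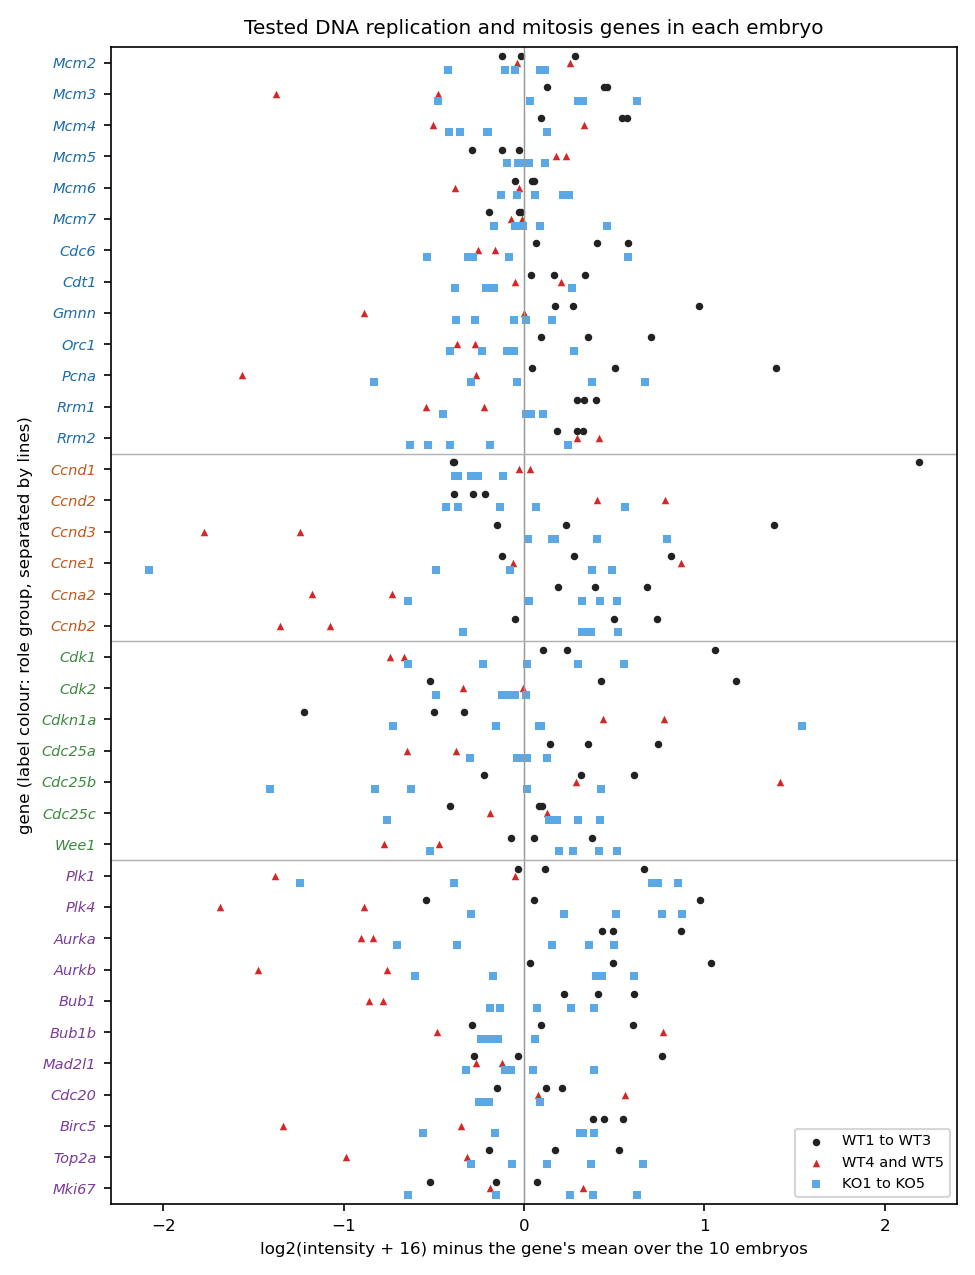
Level of each tested member in each embryo, as log2(intensity + 16) minus the gene's mean over the 10 embryos (x axis). Black circles are WT1 to WT3, red triangles WT4 and WT5, and blue squares KO1 to KO5; in 19 of the 37 genes both red triangles lie left of every black circle.

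The spread among WT embryos was the most visible feature of these genes. WT4 and WT5 both lay below WT1 to WT3 in 19 of 37 members (51.4%, against 21.3% of all probe sets) and both above in 3 (Mcm5, Ccnd2 and Cdkn1a; 23.1% of all probe sets). The mean of WT4 and WT5 was at least 1 log2 unit lower in 11 members (29.7%, against 6.98%), of which 5 were mitotic, 3 cyclins, 2 licensing genes and 1 a Cdk. Mean linear intensity of Ccnd3 was 4.55-fold lower in WT4 and WT5. Between means of the log2 values, the differences of Aurkb, Ccnb2 and Pcna were -1.64, -1.61 and -1.56. That of Cdkn1a was 1.29. The median over the members was -0.56 (0.03 over all probe sets), with -0.97 for mitotic genes, -0.92 for cyclins, -0.53 for Cdks and regulators and -0.49 for licensing genes. The SD among WT embryos exceeded that among KO embryos in 26 members (70.3%, against 56.1%). Its median was 0.56 in WT and 0.35 in KO embryos (0.27 and 0.25 over all probe sets). Among WT1 to WT3, without WT4 and WT5, it was 0.30 (0.19 over all probe sets). These 2 arrays also had the largest 3′ minus middle differences of the controls and the lowest 90th percentiles of intensity (422 and 427, against 472 to 553), and the part of these measures in the difference was not tested. The summed intensity of 7 inner cell mass and epiblast markers was lower there too, at 3197 and 2909, against 5545 to 7680 in WT1 to WT3 and 5725 to 7992 in KO embryos. That of 7 trophectoderm markers was also below WT1 to WT3 (29409 to 40733), at 24977 in WT4 and 28450 in WT5.

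Among KO embryos the 2 array sets were closer in most of these genes. The low-bioB minus high-bioB difference among KO embryos had a median of 0.03 over the members, and 16 of 37 were negative. KO3, KO4 and KO5 all lay below KO1 and KO2 in 4 members (8.95% of all probe sets), the licensing and S-phase genes Mcm4, Cdc6, Gmnn and Pcna, and all above in 1, Cdc25b (8.23%). Pcna fell by 0.91 on the log2 scale between the KO sets and Cdc6 by 0.63. The test of the difference between genotypes, a genotype by array set interaction fitted over all probe sets, passed for 0 members and 0 probe sets (limma). At an unadjusted p under 0.05 it held for 9 members (24.3%, against 12.6% of all probe sets), in all of which the step from high-bioB to low-bioB arrays was lower in WT than in KO embryos. This model was chosen after the values had been seen. Ccnb2 (-1.61 in WT, 0.39 in KO, adjusted p = 0.113) and Bub1 (-1.23 in WT, -0.03 in KO, adjusted p = 0.174) had the smallest p.

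**Figure D3:**
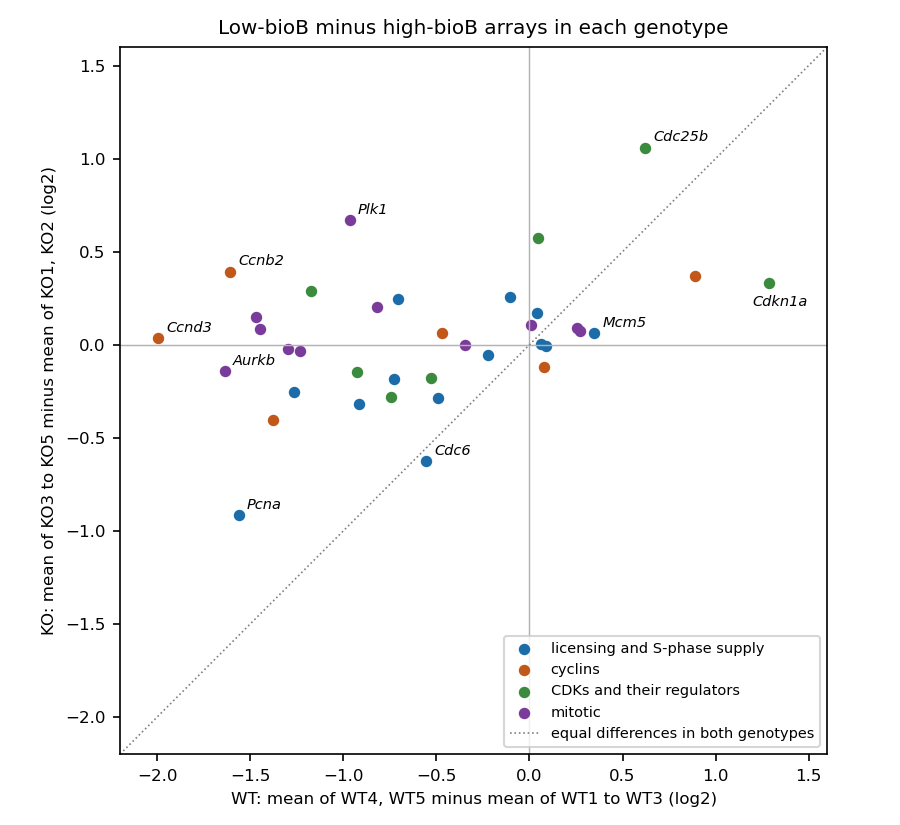
Difference between low-bioB and high-bioB arrays among WT embryos (x axis) and among KO embryos (y axis), as means of log2(intensity + 16), 1 point per tested member coloured by role, with a dotted line where both are equal. Many mitotic genes and cyclins lie far to the left, with Ccnd3 farthest, while the KO values of these groups stay between -0.41 and 0.67, and Pcna and Cdc6 are low in both.

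Probe sets of the same gene disagreed on WT4 and WT5. Of the 22 members with more than 1 tested probe set, 8 were lower by at least 1 log2 unit in WT4 and WT5 at another probe set and not at the brightest one (Mcm4, Mcm5, Mcm6, Mcm7, Cdt1, Rrm2, Bub1b and Cdc20). In 3 (Ccnd3, Ccna2 and Plk4) only the brightest did, and in 2 (Mcm3 and Aurkb) the brightest and at least 1 other did. Of the other Mcm3 probe sets, 1 gave only -0.36. Mcm5, a helicase subunit, read 11319, 12094, 10067, 13900 and 14455 in WT1 to WT5 at its brightest probe set and 1624, 1270, 1074, 355 and 845 at the other. WT4 and WT5 were the highest at the former and the lowest at the latter, at log2 differences of 0.35 and -1.22. The 4 tested probe sets of Mcm7, another subunit, gave -1.97, -0.93, 0.04 and 0.25. Over all tested probe sets of the members, 19 of 37 genes were lower by at least 1 log2 unit at one or more of them. A gene with several probe sets can meet this rule at any of them. The share of all genes meeting it was not computed, nor were shares for the counts of 8, 3 and 2 above. By the ending of the Affymetrix name, the median was 0.08 for x_at (12 probe sets), -0.53 for a_at (9), -0.93 for s_at (7) and -0.81 for plain at (39). Over all tested probe sets these endings had medians of 0.14, -0.11, -0.08 and 0.04. Member probe sets lower by at least 1 log2 unit were 2 of 12, 2 of 9, 3 of 7 and 15 of 39 in that order. Over all tested probe sets the shares were 2.74%, 10.9%, 9.64% and 6.45%. For the genotype difference, all probe sets had the same direction in 15 of the 22 genes, and none of the 30 other probe sets passed (against 0.367% of all probe sets), while 4 of the 30 had an unadjusted p under 0.05, 2 higher and 2 lower (against 10.1%).

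**Figure D4:**
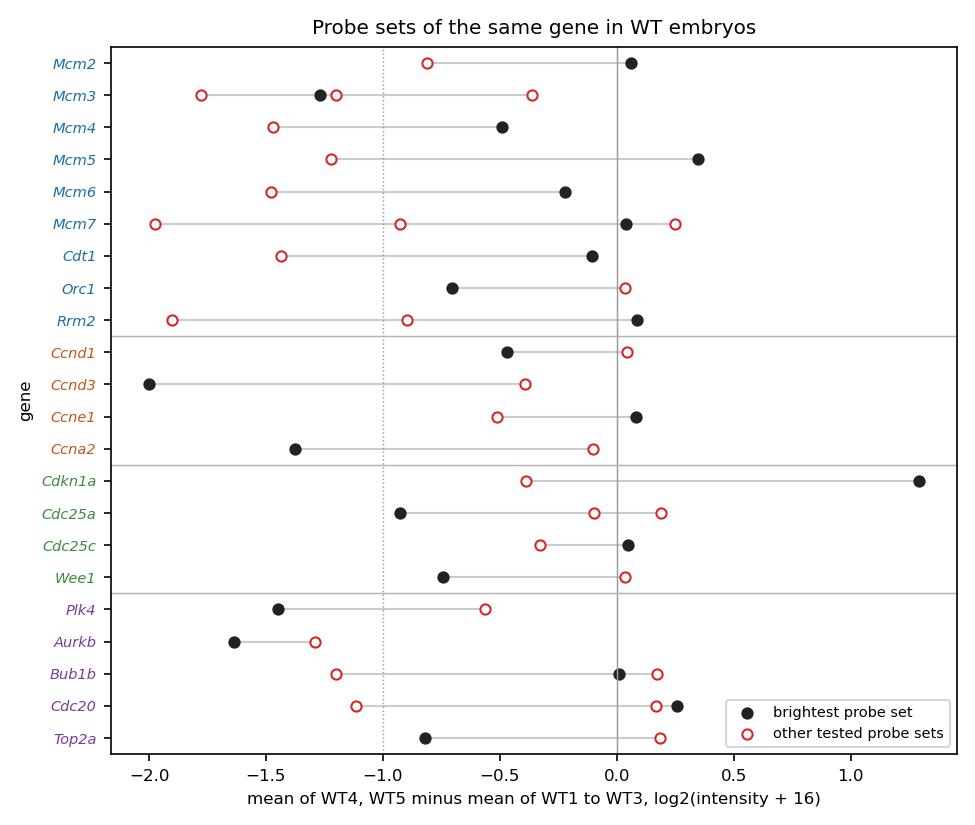
Mean of WT4 and WT5 minus mean of WT1 to WT3 on the log2(intensity + 16) scale (x axis), for the brightest probe set (filled) and the other tested probe sets (open) of each of the 22 members with more than 1. Brightest probe sets of Mcm5, Mcm7, Rrm2 and Cdc20 lie at or right of 0 while another probe set of the same gene lies left of the dotted line at -1.

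Other genes of the pathway, in 8 lists of 125 genes, also gave no call by genotype. Of 109 tested, 0 passed (limma, against 0.367% of all probe sets), also without WT4 and WT5 and with array set in the model, and 10 had an unadjusted p under 0.05, against 10.1% of all probe sets (7 with a higher mean in KO embryos, 3 with a lower one). Their median was 0.03 over all embryos and -0.14 without WT4 and WT5, when 75 of 109 were lower (68.8%, against 48.1% of all probe sets). Of these genes 51 (46.8%, against 21.3%) had both WT4 and WT5 below WT1 to WT3. The closest to passing was Anapc2, a core subunit of the anaphase promoting complex, which was higher in KO embryos by 0.62 (adjusted p = 0.0697), with 0.58 without WT4 and WT5 (adjusted p = 0.158). All KO embryos (1270 to 1686) lay above all WT embryos (819 to 1150). In that list of 21 tested genes Cdc16 (0.47), another subunit, and Smc1a (0.44), of cohesin, followed, and the list median was 0.03.

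Among 29 origin firing and fork genes, Orc2 differed by -0.63 (adjusted p = 0.271), Gins2 by 0.53 and Rpa1 by -0.46, at a list median of 0.04. Among 10 E2F and RB genes, E2f1, the activating E2F, differed by 0.41, and by 0.61 without WT4 and WT5 (adjusted p = 0.404 and 0.0897), E2f7 by -0.63 and Tfdp2 by 0.36. E2f1 was higher in WT4 and WT5 than in WT1 to WT3, by 0.49. Among 11 other Cdks and inhibitors, Cdkn1c (p57) differed by -0.49, Cdk4 by 0.37 and Mnat1 by 0.36. Among 10 checkpoint genes, Chek2 differed by -0.70, Rad17 by 0.51 and Rad9a by 0.38. Among 21 spindle and kinetochore genes, Cenpk differed by 0.89, Mad1l1 by 0.45 and Kif23 by -0.75, and among 6 nucleotide supply genes Dck by -0.28, Dut by 0.32 and Ctps by -0.17. Of 8 oocyte-type genes only Aurkc passed the level filter, at -0.32. Beside these, 7 trophectoderm markers were read, among them the keratins Krt8 and Krt18. Their summed intensity, which weighs the brightest genes most, ran from 24977 to 40733 (WT) and from 6086 to 11327 (KO). Singly, 5 of the 7 were lower in KO embryos (against 50.6% of all probe sets) and the rest were not. Of the 7, 1 passed as lower (limma, against 0.367% of all probe sets). Without WT4 and WT5, 1 passed (against 0.315%), and with array set in the model 1 did (against 0.298%). At an unadjusted p under 0.05, 3 were lower (against 4.84%), and 4 without WT4 and WT5 (against 7.72%). Their median difference was -0.28 on the log2 scale, and -0.91 without WT4 and WT5. The part of these markers in any difference above was not tested.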

How the data were processed

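Single-embryo cDNA was made by the protocol of Kurimoto and colleagues and biotin-labelled, per the labels. The series' description names GeneSpring GX as the software. The deposited values were linear intensities, as judged from the values. How the authors corrected background and normalized these intensities is not given in the sources used here.

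Probe sets with 1 platform symbol were used. Intensities became log2(intensity + 16). The 38676 probe sets less 53 controls were filtered at the 40th percentile of the mean (5.55), leaving 23174. KO and WT were compared by limma 3.58.1 under R 4.3.3 (two-sided, Benjamini-Hochberg over all), tested on simulated data. P-values set a difference against the spread between single embryos, which here includes the spread of amplification and array. The number of arrays limits the precision.

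Members, lists and tests were chosen with earlier results of these data known. Alternatives were other normalizations, filters, pseudocounts, priors, weights and blocks, and leaving out embryos. Named with all values were, per role, the 3 members of smallest p and the one with the largest gap between WT1 to WT3 and WT4 and WT5, plus those at an unadjusted p under 0.05 in either fit, and per pathway list the 3 of smallest p. Mcm5, Mcm7 and the counts by probe set were chosen after their values were seen. Figures used matplotlib 3.10.9.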

Additional observations from a re-analysis of the deposited data

Results flagged for a closer look

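In 8 of the 74 sets of 5 embryos of 1 genotype, 1 embryo stood far from the rest by Dixon's criterion. The criterion is set to flag about 1 in 20 independent sets, but these sets share the same 10 arrays. The share over all probe sets was not computed, so no excess is read from this count. In log2(intensity + 16), WT3 was high for Ccnd1 (8.73, next 6.57), WT2 was high for Mad2l1 (9.54, next 8.74) and WT4 was low for Mcm6 (10.11, next 10.44). KO4 was low for Rrm1 (8.77, next 9.23), KO5 was low for Cdk2 (6.47, next 6.84) and high for Cdc20 (13.49, next 13.21). KO1 was low for Ccnb2 (8.05, next 8.71) and for Cdc25c (8.20, next 9.10). Rrm2 passed only in the fit that left out KO4, and for Rrm2 KO4 was not far enough from the other KO embryos to meet this criterion.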

How the results depend on the processing

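Of the member differences, 37 of 37 kept their direction and did not pass with median centring, no filter, pseudocount 1, pseudocount 64, a robust trended prior and the replicate block, as did the 36 that remained at the 60th percentile filter. With quantile normalization Mcm5 (-0.0136) and Cdk1 (-0.0499) changed direction. With array weights Ccnd2 (0.0171), Cdk1 (-0.15), Bub1 (-0.0225) and Birc5 (-0.0802) did, and with the bioB block Mcm5 (-0.0309), Pcna (0.20), Cdc25a (0.0203), Aurka (0.11) and Mad2l1 (0.0105) did. Without WT4 and WT5 the reversed differences were Mcm3 -0.18, Ccnd2 0.24, Ccnd3 -0.18, Ccna2 -0.29, Ccnb2 -0.15, Cdk1 -0.47, Plk1 -0.12, Aurkb -0.39, Bub1 -0.33, Birc5 -0.40 and Top2a -0.0078. The medians then moved to -0.29 for all members, -0.40 for licensing, -0.46 for Cdks and regulators and -0.23 for mitotic genes. Within the high-bioB set alone they were -0.29 for all members, -0.37 for Cdks and regulators and -0.30 for mitotic genes. Within the low-bioB set alone they were 0.26, 0.18 for licensing, 0.32 for Cdks and regulators and 0.89 for mitotic genes. The cause was not tested.

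Leaving out 1 embryo at a time, 0 to 1 members passed (Rrm2 without KO4), 45 to 63 of all probe sets passed where 85 did with all embryos, and the medians ran from -0.10 to 0.08 for all members, -0.26 to -0.05 for licensing, -0.06 to 0.19 for cyclins, -0.18 to 0.16 for Cdks and regulators and -0.04 to 0.28 for mitotic genes. Some of these fits reversed Mcm5 (-0.0608 to 0.0695), Gmnn (-0.46 to 0.002), Pcna (-0.44 to 0.30), Ccnd2 (-0.28 to 0.0601), Ccna2 (-0.0033 to 0.46), Cdk1 (-0.18 to 0.27), Cdkn1a (-0.008 to 0.57), Cdc25a (-0.26 to 0.0874), Plk1 (-0.0416 to 0.61), Aurka (-0.25 to 0.19), Aurkb (-0.0661 to 0.56), Bub1 (-0.0349 to 0.33), Mad2l1 (-0.12 to 0.16) and Birc5 (-0.20 to 0.28).

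With the embryo number as a replicate block 24 probe sets and 0 members passed. No label says that the numbers pair embryos, and same-numbered deviations correlated at -0.03 to 0.18. The numbers did follow the array sets in part. WT1, WT2, KO1 and KO2 were all high-bioB arrays, and WT4, WT5, KO4 and KO5 were all low-bioB arrays. Whether same-numbered embryos shared more than this was not tested. Taking the mean of all tested probe sets of a gene also left 0 members past the threshold. Dim members such as Ccnd2, Ccne2 and Cdkn1b, and Cdc25b in some KO embryos, are limited by their low signal.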
